A study of Mus musculus with 32 samples.

Results

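GRIN2D is a subunit of the NMDA receptor, a glutamate-gated and aspartate-gated cation channel that lets calcium into the cell and, through calcium-dependent kinases, activates the transcription factor CREB. In the mechanism that the experiment was built to examine, CREB acts on Dohh, the hydroxylase that completes hypusination of the translation factor eIF5A, and hypusinated eIF5A helps ribosomes elongate and terminate, above all through runs of proline. The comparison described here asked whether spheroids with less Grin2d, given aspartate, sorted their mRNAs between polysomes and lighter fractions as control spheroids did without added aspartate. It used 8 of the 16 pellets of the experiment and 16 of its 32 libraries, 4 pellets in each of 2 conditions and 2 matched libraries in each pellet, taken by condition label.

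The cells were 4T1, a mouse mammary carcinoma line, grown as spheroids for 5 days in lung-like medium, a culture medium made to resemble lung interstitial fluid. ASP shGRIN2D spheroids carried a lentiviral hairpin against Grin2d and received 700 µM aspartate. NoASP shSCR spheroids carried a scrambled hairpin and received no added aspartate. Both lines were polyclonal and had been selected with puromycin. The 2 conditions therefore differ in the hairpin and in the medium, and the parts of these 2 factors cannot be told apart within the comparison. ASP shSCR, which shares the hairpin of one and the medium of the other, is given as a level beside them, with no test. From each pellet, mRNA carrying more than 3 ribosomes (polysomal) and mRNA carrying fewer (sub-polysomal) was sequenced. The 16 libraries held between 12870563 and 22075701 counts. For each pellet and gene, the translation ratio is the log2 of the polysomal over the sub-polysomal level, with a prior count of 2, so that a value of 1 means a level in polysomes that is 2 times that in the lighter fraction. The libraries are scaled to each other, so a change shared by all mRNAs is not visible in them, and in bulk pellets fewer cells of a kind and less RNA per cell cannot be told apart.

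The spheroids had the markers of an epithelial line. All 12 epithelial markers of the list were above a mean of 50 counts, led by Krt8 at 1284 CPM (counts per 1000000 of the scaled library total). Of the 12 leukocyte markers, Ptprc and Csf1r were in the table, with a summed level of at most 1.05 CPM in any of the 16 libraries. Endothelial markers summed to 1.63 to 7.85 CPM, most of it Tie1, and Kdr and Cdh5 were not among the genes analysed here. Fibroblast markers summed to 99.4 to 228 CPM, with Thy1 as the most abundant, and Dcn and Lum were not among them either. The summed epithelial markers of the sub-polysomal libraries were 2459 to 2903 CPM in ASP shGRIN2D and 3266 to 4393 CPM in NoASP shSCR, without overlap. In the polysomal libraries the ranges, 3731 to 7158 CPM and 4776 to 9237 CPM, overlapped. The part of this difference in the results below was not tested.

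Grin2d itself (GRCm38 chr7:45831883-45878378, minus strand) was low in all libraries, with 21 to 56 counts in ASP shGRIN2D and 42 to 86 in NoASP shSCR. In polysomes its level was 1.94, 1.13, 1.06 and 2.39 CPM in the 4 ASP shGRIN2D pellets and 4.15, 2.84, 3.97 and 3.55 CPM in the 4 NoASP shSCR pellets. In the sub-polysomal fraction it was 2.59, 1.87, 2.62 and 2.89 CPM against 4.25, 4.33, 3.53 and 3.18 CPM. The pellets of the 2 conditions did not overlap in either fraction, and the knockdown mean was 45.0% of the NoASP shSCR mean in polysomes and 65.3% of it in the lighter fraction. An exact two-sided permutation test over 4 against 4 pellets gave p = 0.0286 in each fraction, the smallest value this design allows. In the fit across all genes the log2 differences, −1.16 ± 0.33 (SE) and −0.62 ± 0.30, had adjusted p-values of 0.657 and 0.525 (edgeR quasi-likelihood test, Benjamini-Hochberg). The Grin2d translation ratio was −0.64 ± 0.43 (SD, n = 4) in ASP shGRIN2D and −0.08 ± 0.35 in NoASP shSCR, a log2 difference of −0.58 ± 0.42 (SE) that did not pass the test. ASP shSCR had Grin2d at 3.39 ± 0.56 CPM in polysomes and 4.56 ± 1.61 CPM outside them. Grin1, the obligate partner subunit of NMDA receptors, had 13 counts over all 16 libraries, so that its ratio could not be measured at this depth.

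**Figure D1:**
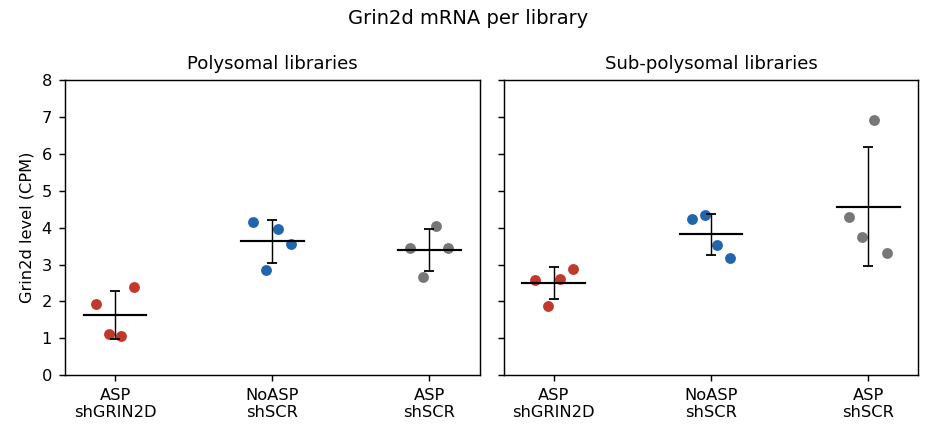
Grin2d level in CPM in each polysomal (left) and sub-polysomal (right) library. Points are the 4 pellets of a condition, with the mean and SD. The ASP shGRIN2D pellets lie below all NoASP shSCR pellets in both fractions, at means of 1.63 and 3.63 CPM in polysomes and 2.49 and 3.82 CPM outside them.

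No gene passed the test for a different translation ratio between ASP shGRIN2D and NoASP shSCR. Of 17757 genes, 0 were higher (0.0%) and 0 lower (0.0%) at an adjusted p below 0.05 by edgeR, which compared the condition ratios with a term for each pellet. DESeq2's Wald test and limma-voom also called 0. At an unadjusted p below 0.05 there were 195 genes by edgeR (1.10% of those tested), 180 by DESeq2 and 382 by limma-voom. With no differences and exact p-values the share would be near 5%, so the edgeR test may be too strict in these data. The lowest adjusted p by edgeR was 1. Among the 10885 genes with a mean of at least 50 counts over the 16 libraries, the log2 difference in ratio had a median of 0.00, and its middle 90% ran from −0.37 to 0.33. The median SE of these differences was 0.29, and 5% to 95% of the genes had an SE of 0.23 to 0.46.

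The precision of the differences varied among genes. The 95% interval of the difference, from limma-voom on the 2 conditions and not adjusted for the number of genes, had a median half-width of 0.53. For 9723 of the 10885 genes (89.3%) it lay wholly within 1 log2 unit of 0, so that for these a 2-fold difference in ratio lay outside the interval. For the other 1162 genes it reached past 1 log2 unit, so that a difference of more than 2-fold was within it. For 1 of these genes it lay wholly past 1 log2 unit. These intervals hold for 1 gene at a time. The test adjusted over 17757 genes asks for more, and a gene with such a difference need not have passed it.

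The order of mRNAs along the gradient was alike in the 2 conditions. The mean ratios of ASP shGRIN2D and NoASP shSCR had r = 0.97 across the 10885 genes, which describes genes of the same libraries and not independent replicates. On the same side of 0 in both conditions were 94.1% of the genes, 5809 above and 4434 below, and 0 genes had pellets all above 0 in one condition and all below it in the other. The correlations of single pellets within and between conditions overlapped. Pairs of ASP shGRIN2D pellets had r of 0.79 to 0.90 across genes, pairs of NoASP shSCR pellets 0.84 to 0.92 and pairs of one and the other 0.81 to 0.91. The lowest values within ASP shGRIN2D were between pellet 1 and pellets 2 and 3, at 0.80 and 0.79.

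**Figure D2:**
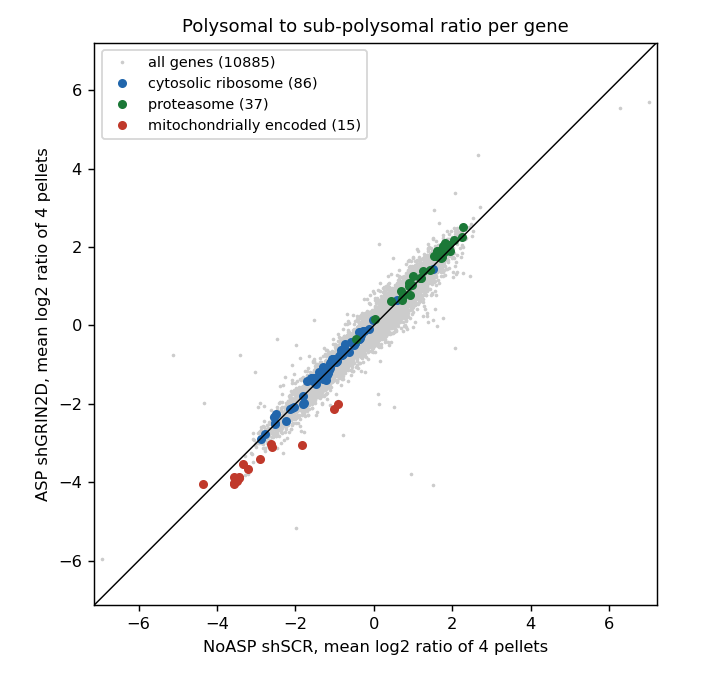
Mean log2 translation ratio of each of 10885 genes in NoASP shSCR (x axis) and ASP shGRIN2D (y axis), 4 pellets each, with 3 gene groups coloured and the line of equal values. Cytosolic ribosomal protein genes spread along the line around medians of −0.99 (ASP shGRIN2D) and −1.12 (NoASP shSCR) and proteasome genes around 1.75 and 1.57, while most of the 15 mitochondrially encoded genes lie below the line.

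The strength of sorting, taken per pellet as the SD over genes of the log2 ratio, was 1.30, 1.03, 1.13 and 1.14 in ASP shGRIN2D and 1.13, 1.02, 1.04 and 1.21 in NoASP shSCR. The ranges overlapped, with means of 1.15 ± 0.11 (SD, n = 4) and 1.10 ± 0.09. The difference of 0.05 did not pass an exact two-sided permutation test (p = 0.514, 70 regroupings, smallest possible p 0.0286).

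The genes of hypusination gave no call in ratio. Dohh, the deoxyhypusine hydroxylase, had log2 ratios of −0.07, 0.22, 0.20 and 0.55 in ASP shGRIN2D and 0.21, 0.01, −0.04 and 0.49 in NoASP shSCR, a difference of 0.06 ± 0.25 (SE) with a 95% interval from −0.36 to 0.53. Its level outside polysomes was 86.5 ± 18.1 CPM (SD, n = 4) against 83.3 ± 16.4 CPM, and in polysomes 100.5 ± 14.6 CPM against 92.8 ± 13.0 CPM. The pellets of the 2 conditions overlapped in each of these measures. Dhps, the synthase that makes the first step of hypusine, differed by −0.03 ± 0.28 (interval −0.53 to 0.49) and Eif5a by −0.05 ± 0.33 (interval −0.64 to 0.56). Eif5a2, the second isoform, differed by −0.02 ± 0.45 in ratio. Its sub-polysomal level was 18.7 ± 2.46 CPM in ASP shGRIN2D and 14.1 ± 0.616 CPM in NoASP shSCR, a log2 difference of 0.41 that did not pass (adjusted p = 0.496, edgeR). None of the 4 genes passed any of the 3 tests.

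Between the receptor and hypusination stand calcium signalling and CREB. Of the 21 calcium relay genes with enough counts (calmodulins, their kinases, calcineurin and the ERK relay), 0 passed the ratio test, 0 had pellets without overlap and the median difference was 0.06. Of all 10885 measurable genes, 0.634% were higher and 0.432% lower without overlap, so that a count of 0 in a list of this size is near the background. Camk2d, a calmodulin kinase, had the lowest unadjusted p of them, with a difference of 0.26 ± 0.25 (SE). Creb1 differed by −0.09 ± 0.30, with an interval of −0.57 to 0.42. Among the 10 CREB family factors and coactivators the median difference was −0.11, and the 1 member without overlap between pellets (0.432% of all measurable genes were lower in this way) was Ep300, the histone acetyltransferase that CREB recruits. Its ratio was 0.07, −0.47, 0.28 and 0.03 in ASP shGRIN2D and 0.72, 0.35, 0.75 and 0.61 in NoASP shSCR, so that every knockdown pellet was lower. The difference of −0.63 ± 0.25 (SE) had an unadjusted p of 0.0188 in the edgeR fit and an adjusted p of 1. Crebbp, its close relative, differed by −0.23 ± 0.27 with overlap. The 20 measurable immediate early genes, many of them CREB targets, had a median difference of −0.14 and 0 calls.

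The TGF-β and collagen genes at the far end of the mechanism gave no call in ratio either. Tgfb1 had ratios of −1.53 ± 0.24 (SD, n = 4) in ASP shGRIN2D and −1.54 ± 0.21 in NoASP shSCR, a difference of 0.01 with an interval from −0.40 to 0.47. Smad3, which carries the TGF-β signal to the nucleus, differed by −0.14 ± 0.25 (SE). The 20 measurable TGF-β ligand, latency and receptor genes had a median difference of −0.03 and the 14 SMAD genes one of −0.09, with 0 calls and 0 genes without overlap in both lists, near the background shares of 0.634% higher and 0.432% lower. Col1a1 had a mean of 7.44 counts per library, too few to read its ratio. The 11 collagen chains with enough counts had a median difference of −0.20, with 10 of them below 0 and 0 without overlap. Their median ratio varied more among pellets of one condition than between conditions. It was 1.21, −0.09, 0.29 and 1.72 in the ASP shGRIN2D pellets and 0.99, 0.52, 0.87 and 1.78 in those of NoASP shSCR. Pellet 2 was the lowest and pellet 4 the highest in both conditions, and pellet 3 of ASP shGRIN2D was low as well.

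**Figure D3:**
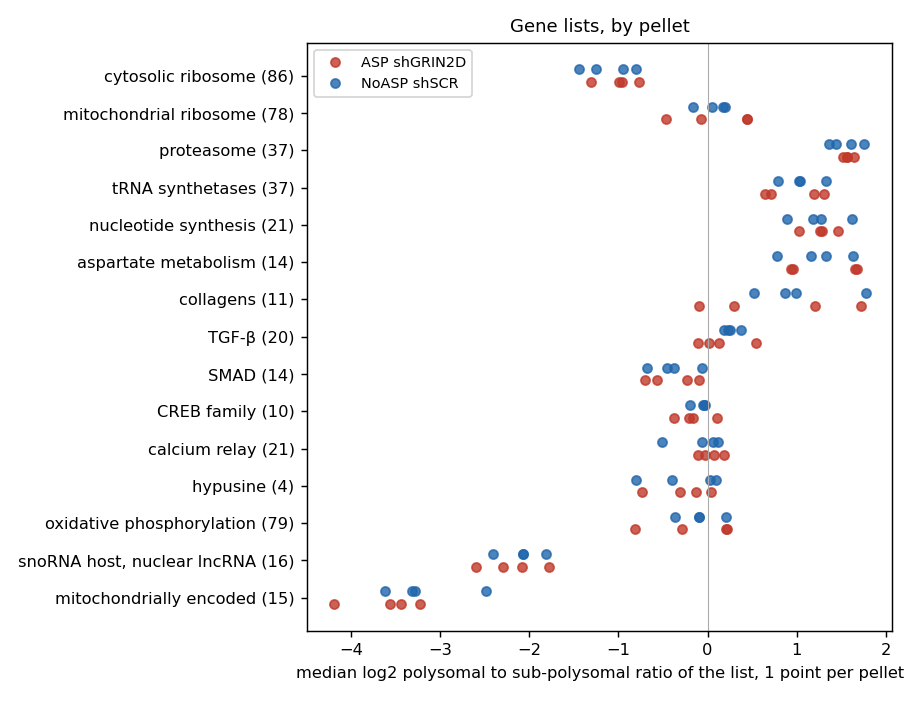
Median log2 translation ratio of 15 gene lists (number of measured genes in brackets) in each of the 4 pellets of ASP shGRIN2D and of NoASP shSCR. In all lists shown the pellets of the 2 conditions overlap, and the pellet medians span from −4.19 (mitochondrially encoded, ASP shGRIN2D) to 1.78 (collagens, NoASP shSCR).

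The lists of the translation machinery gave 0 calls in ratio. The 86 cytosolic ribosomal protein genes, whose mRNAs are short and bear a 5′ terminal oligopyrimidine tract, had a median ratio of −0.99 in ASP shGRIN2D and −1.12 in NoASP shSCR, with pellet medians from −1.30 to −0.77 and from −1.44 to −0.80. Of these genes 70 had a difference above 0, and the median was 0.07. The largest was 0.29, and 0 genes passed the test or had pellets without overlap, where 0.634% of all measurable genes were higher and 0.432% lower in this way. The 78 mitochondrial ribosomal protein genes had a median difference of 0.05, the 44 initiation factor genes 0.04 and the 37 tRNA synthetase genes 0.01. Proteasome genes, at median ratios of 1.75 and 1.57, were the most polysomal of the lists in both conditions. Their median difference was 0.13, with 31 of 37 above 0. In the initiation factor and proteasome lists 1 gene each was higher without overlap and 0 were lower. The mitochondrial ribosomal protein and tRNA synthetase lists had 0 in either direction. Over all 10885 genes the median was 0.00, with 5369 above 0 and 5516 below.

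Aspartate enters protein, nucleotides and the urea and malate shuttles, and genes of these pathways were listed because aspartate was supplied to one condition and not added to the other. The 14 measurable genes of aspartate metabolism had a median difference in ratio of 0.11, 12 of them above 0. Asl, which splits argininosuccinate, led them with 2.33, 2.54, 1.88 and 2.45 in ASP shGRIN2D against 1.74, 1.30, 1.67 and 2.33 in NoASP shSCR. The ranges overlap, and the difference of 0.55 ± 0.28 (SE) had an unadjusted p of 0.0583 in edgeR and an adjusted p of 1. The 21 genes of nucleotide synthesis had a median difference of 0.01 and the 19 genes of the integrated stress response −0.06. The latter list, which answers to amino acid shortage through ATF4, had 1 member higher without overlap (0.634% of all measurable genes were), Vldlr, described below.

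Mitochondrially encoded transcripts sediment apart from cytosolic polysomes, and the mRNAs among them are translated on mitochondrial ribosomes. The list also holds ribosomal RNA, as mt-Rnr2, whose difference of −1.19 was the lowest of the list and did not pass the test. The list stood lowest in both conditions. It had the most negative median difference of the lists with more than 1 measured gene, −0.46 over 15 genes, 14 of them below 0. The pellet medians were −4.19, −3.22, −3.57 and −3.44 in ASP shGRIN2D and −3.62, −3.32, −2.48 and −3.28 in NoASP shSCR, with overlap. Those of ASP shSCR were −0.17, −3.40, −3.38 and −2.86. Pellet 1 of ASP shSCR, which also had the lowest spread of ratios over genes (0.816), stood apart, and the list's median was −2.47 with it and −3.29 without it. The list's median level differed by 0.35 (log2) outside polysomes and by −0.09 in them. mt-Nd6, a complex I subunit and the gene with the lowest unadjusted p of those that were lower without overlap, had ratios of −1.75, −2.30, −2.23 and −1.78 in ASP shGRIN2D and −0.48, −1.01, −1.06 and −1.14 in NoASP shSCR. The difference was −1.11 ± 0.34 (SE), with an unadjusted p of 0.00282 in edgeR and an adjusted p of 1. It is coded on the opposite strand to most mitochondrial genes (GRCm38 chrM:13552-14070, minus strand). By the Methods the libraries were made with a stranded kit. Whether the counts used strand is not given in the sources used here, so mt-Nd6 reads cannot be told apart from antisense RNA of its neighbours. The 16 snoRNA host and nuclear long noncoding RNAs, the list with the next lowest ratios, had a median difference of −0.06 at ratios of −2.18 and −2.10.

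Genes whose pellets did not overlap between conditions were few. Of the 10885 measurable genes, 69 were higher in all ASP shGRIN2D pellets than in all NoASP shSCR pellets (0.634%) and 47 were lower (0.432%). The 10 with the lowest unadjusted p in each direction are described next, none of them past the threshold (adjusted p = 1 for all 20, edgeR). They are values to read beside the spread, not changed genes.

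Zfp946, a zinc finger gene, had ratios of 0.65, 0.54, 0.71 and 0.75 in ASP shGRIN2D and 0.01, −0.18, −0.14 and −0.39 in NoASP shSCR, a difference of 0.85 ± 0.30 (SE). Gpt, the alanine aminotransferase that passes amino groups between alanine and glutamate, had −0.83, −0.82, −0.91 and −0.59 against −1.55, −1.69, −1.75 and −1.60. Its difference of 0.88 ± 0.32 set it in the lighter fraction in both conditions, yet less so in the knockdown, and ASP shSCR stood at −1.52 ± 0.35 (SD, n = 4). Notum, a secreted enzyme that inactivates Wnt proteins, differed by 0.74 ± 0.28. Vldlr, a lipoprotein receptor, differed by 0.93 ± 0.39, Lipa, the lysosomal acid lipase, by 0.60 ± 0.25, and Sqor, which oxidises sulfide in mitochondria, by 0.59 ± 0.25. Sesn1, a stress-induced restraint on mTORC1, differed by 0.73 ± 0.32 and Arl13b, a GTPase of the primary cilium, by 0.66 ± 0.28. Txndc16 at 0.83 ± 0.36 and D430020J02Rik at 0.78 ± 0.31 completed the 10.

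The 10 lower genes included Ep300 and mt-Nd6, described above. Spen, a large corepressor, differed by −0.65 ± 0.26 (SE) and Med12, of the Mediator kinase module, by −0.68 ± 0.30. Spen had ratios of −0.62, −1.12, −0.63 and −0.37 in ASP shGRIN2D and 0.35, −0.13, −0.13 and −0.20 in NoASP shSCR. Atad5, which unloads the sliding clamp PCNA after replication, differed by −0.75 ± 0.27, Cdan1, a regulator of histone supply, by −0.70 ± 0.29 and Syne1, the giant nuclear envelope protein nesprin-1, by −0.62 ± 0.28. Iqcc at −0.90 ± 0.36, Zfp949 at −0.68 ± 0.29 and Trp53rkb at −0.74 ± 0.34 were the others. All 20 genes kept their direction under each of the alternatives tried, and none passed the threshold in any of them. The genes were chosen for pellets without overlap, so a fit with 1 pellet left out could hardly turn their direction. The kept direction is therefore no sign of a stable difference. ASP shSCR lay nearer to NoASP shSCR for some, as for Zfp949 (0.95 ± 0.36, SD, n = 4, against 0.97 ± 0.08) and Atad5 (0.86 ± 0.20 against 0.93 ± 0.30). It lay nearer to ASP shGRIN2D for others, as for Txndc16 (0.90 ± 0.39 against 0.91 ± 0.27) and Trp53rkb (−0.76 ± 0.37 against −0.87 ± 0.58). Without pellet 1 the ASP shSCR means were 0.79 for Zfp949, 0.85 for Atad5, 0.93 for Txndc16 and −0.80 for Trp53rkb, nearer to the same condition as with it.

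**Figure D4:**
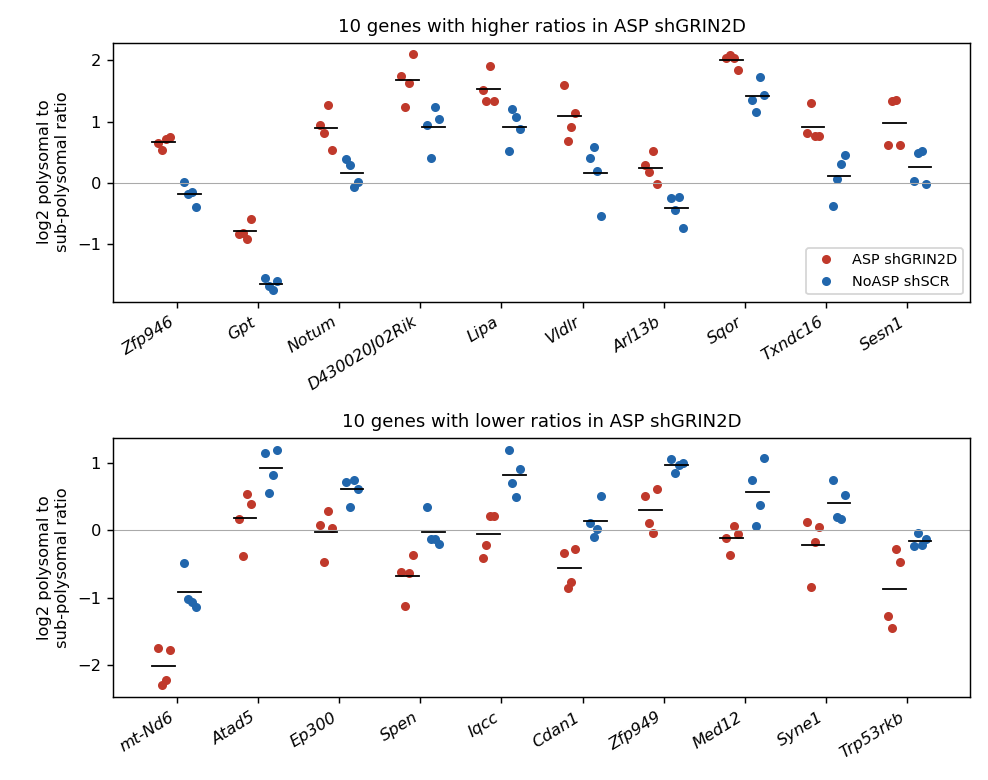
Log2 translation ratio of 20 genes in each of the 4 pellets of ASP shGRIN2D and NoASP shSCR, with the mean as a bar. The genes were chosen because the pellets do not overlap and have the lowest unadjusted p of that kind, and none passed the threshold (adjusted p = 1 for all).

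The small differences in ratio were not evenly spread over transcript lengths. Across the 10377 measurable genes with a complete coding region in the annotation, the difference had a Spearman rho of −0.20 with coding length. Among the 2594 genes with the longest coding regions (2232 bases or more) the median difference was −0.11, with 3 genes higher and 22 lower without overlap (69 and 47 of all 10885 genes, 0.634% and 0.432%). Among the 2594 genes of 861 to 1389 bases it was 0.06, with 36 higher and 6 lower. The 2594 genes of 1389 to 2232 bases lay at 0.03, with 18 and 9, and the 2595 shortest, of 111 to 861 bases, at 0.00, with 9 and 10, so that the order did not go on to the short end. The single pellets overlapped, however. The genes of the longest coding regions had median ratios of 0.58, 0.06, 0.21 and 0.39 in ASP shGRIN2D and 0.46, 0.28, 0.39 and 0.63 in NoASP shSCR. The rho between coding length and ratio itself was 0.37, 0.04, 0.04 and 0.23 in the former and 0.21, 0.12, 0.30 and 0.29 in the latter, with pellets 2 and 3 of ASP shGRIN2D the lowest of the 8. Whether length has a part in the differences of single genes was not tested.

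Runs of 3 or more prolines, at which ribosomes lean on eIF5A, were sought in the annotated coding regions. They were counted as sets of 3 consecutive prolines that may overlap, so that a longer run counts more than once. Genes with at least 1 run (2618 of the 10377) had a median difference in ratio of −0.05 and those without a run (7759) of 0.01. Those with 3 or more sets, in 1 run or several (787), had a median of −0.09. The genes with runs were longer, with a median coding length of 2070 bases against 1239. Of the genes with a run 0.535% were higher and 0.764% lower without overlap, and of those without one 0.670% and 0.348%. For 3 or more sets, in genes with a median coding length of 2688 bases, the shares were 0.381% and 0.508% (3 and 4 genes). Neither was larger than in the genes with at least 1 run. The separate parts of length and proline were not tested.

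Levels of mRNA differed between ASP shGRIN2D and NoASP shSCR for a small number of genes. Their differences had a median SE of 0.18 in the lighter fraction and 0.26 in polysomes, against 0.29 for the ratios. In the sub-polysomal libraries 21 of 17757 genes were higher (0.118%) and 31 lower (0.175%) in ASP shGRIN2D at an adjusted p below 0.05 (edgeR), and in the polysomal libraries 3 were higher (0.0169%) and 1 lower (0.00563%). The 4 polysomal calls were also called in the lighter fraction. All 52 sub-polysomal calls had the same direction in polysomes, where the 21 higher genes had a median log2 difference of 0.80 (0.98 in the lighter fraction) and the 31 lower genes one of −0.82 (−1.02). Their median differences in ratio were −0.13 and 0.14, and 0 and 1 of them had an unadjusted p below 0.05 in the ratio test, the 1 being Dll4. DESeq2 called 169 genes in the lighter fraction and 34 in polysomes. With the replicate number as a block, edgeR called 157 and 14. Without ASP shSCR pellet 1, left out after seeing the data, edgeR called 45 and 10. The polysomal count of 4 fell to 0 without any 1 of 7 of the 8 pellets, and was 3 without ASP shGRIN2D replicate 4. The sub-polysomal count was 26, 79, 26 and 30 without ASP shGRIN2D replicates 1 to 4, and 33, 19, 44 and 38 without NoASP shSCR replicates 1 to 4.

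Ly6d, a GPI-anchored surface protein of epithelial cells, had the largest difference among the called genes. Its sub-polysomal level was 10.5, 9.98, 7.86 and 4.99 CPM in ASP shGRIN2D and 1.08, 0.351, 0.790 and 0.605 CPM in NoASP shSCR, with a log2 difference of 3.54 ± 0.40 (SE, adjusted p = 1.6e-05, edgeR). In polysomes it was 8.49 ± 3.66 CPM (SD, n = 4) against 1.27 ± 0.509 CPM. Odf3l1 rose from 16.8 ± 1.79 to 41.6 ± 5.95 CPM outside polysomes and from 11.5 ± 1.29 to 29.1 ± 2.77 CPM in them, log2 differences of 1.31 and 1.33, so that its ratio was −0.51 ± 0.13 in one condition and −0.54 ± 0.13 in the other. Gas7, a cytoskeletal protein, was higher by 1.61 ± 0.31 (SE) outside polysomes and 2.16 ± 0.36 in them, and its call outside them was lost without ASP shGRIN2D replicate 1 or NoASP shSCR replicate 1 (adjusted p = 0.104 and 0.0552, edgeR). Asic1, an acid-gated sodium channel, was 5.27 ± 0.771 CPM against 1.27 ± 0.528 CPM in the lighter fraction. Cd300lb, a surface receptor, was higher there by 1.46 ± 0.31, a call that was lost without any 1 of 7 of the pellets. The polysomal calls of Ly6d and Gas7 were lost in 7 of the 8 fits with 1 pellet left out and that of Odf3l1 in all 8.

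Of the collagen list, 3 of 26 chains were higher in the sub-polysomal fraction (0.118% of all genes) and 0 lower (0.175% of all genes). The median level difference of the 11 chains with enough counts was −0.02 in this fraction and 0.05 in polysomes. Col6a1, which forms collagen VI with Col6a2, stood at 30.0, 26.8, 38.8 and 32.6 CPM in ASP shGRIN2D and 19.0, 17.2, 15.2 and 19.6 CPM in NoASP shSCR, a log2 difference of 0.86 ± 0.17 (SE, adjusted p = 0.0197, edgeR). Col6a2 differed by 1.80 ± 0.34 and Col5a1, of the fibril-regulating collagen V, by 0.81 ± 0.18. In polysomes the 3 chains had differences of 0.78, 1.05 and 0.50 that did not pass (adjusted p = 1). In the other lists of the mechanism, from NMDA receptor subunits to SMAD genes, 0 genes passed in either fraction. Hspa1b, an inducible HSP70 chaperone, was the 1 call of the chaperone list, higher by 0.82 ± 0.18 outside polysomes. These calls lay close to the threshold. With 1 of the 8 pellets left out, that of Col6a1 was lost in 5 of 8 fits (adjusted p up to 0.0973, edgeR), that of Col6a2 in 2, that of Col5a1 in 7 and that of Hspa1b in 5.

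Among the lower genes, Agps, an enzyme of ether lipid synthesis, had the lowest adjusted p (1.6e-05, edgeR). It was 37.4, 46.5, 45.8 and 48.1 CPM in ASP shGRIN2D and 102, 99.9, 108 and 109 CPM in NoASP shSCR outside polysomes, a log2 difference of −1.24 ± 0.14 (SE). In polysomes it was 47.8 ± 11.4 CPM (SD, n = 4) against 105 ± 15.6 CPM, a difference of −1.14 that did not pass (adjusted p = 0.0829, edgeR). Dll4, a Notch ligand, differed by −1.35 ± 0.27 in the lighter fraction, Pgap1, which trims GPI anchors in the endoplasmic reticulum, by −1.35 ± 0.23 and Sfrp1, a secreted Wnt antagonist, by −1.32 ± 0.24. Ankrd1, a target of the YAP coactivator, was the 1 lower gene in polysomes, a call that was lost in all 8 fits with 1 pellet left out (adjusted p 0.0905 to 0.239, edgeR), at 12.7 ± 2.12 CPM against 29.3 ± 2.61 CPM (log2 difference −1.22 ± 0.20), and was lower by 0.98 on the log2 scale outside them. Of 20 cholesterol synthesis genes in the table, Cyp51 (−0.65 ± 0.15) and Msmo1 (−0.63 ± 0.14) were lower in the lighter fraction, where 0.175% of all genes were, both of the demethylation steps after lanosterol, and of the epithelial markers Krt7 was lower (−0.89 ± 0.17). With 1 pellet left out, the call of Dll4 was lost in 3 of 8 fits, that of Krt7 in 4, and those of Cyp51 and Msmo1 in 7 each. The calls of Ly6d, Odf3l1, Asic1, Agps, Pgap1 and Sfrp1 in the lighter fraction were kept in all 8.

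For all 52 genes with a different sub-polysomal level, the mean of ASP shSCR lay nearer to NoASP shSCR than to ASP shGRIN2D on the log2 scale, with and without pellet 1 of ASP shSCR. The median log2 distance of ASP shGRIN2D from ASP shSCR was 0.89 for the higher genes and −0.84 for the lower ones. That of NoASP shSCR from ASP shSCR was −0.09 and 0.19. Ly6d outside polysomes, for example, was 1.54 ± 0.633 CPM (SD, n = 4) in ASP shSCR, Odf3l1 16.6 ± 2.24 CPM and Agps 85.4 ± 12.2 CPM. The genes were chosen for their difference between the first 2 conditions, and the comparison with ASP shSCR is a description without a test. The 2 shSCR conditions share a hairpin line, and the ASP shGRIN2D line is a separate polyclonal line, so that the hairpin and the history of the line cannot be told apart here.

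**Figure D5:**
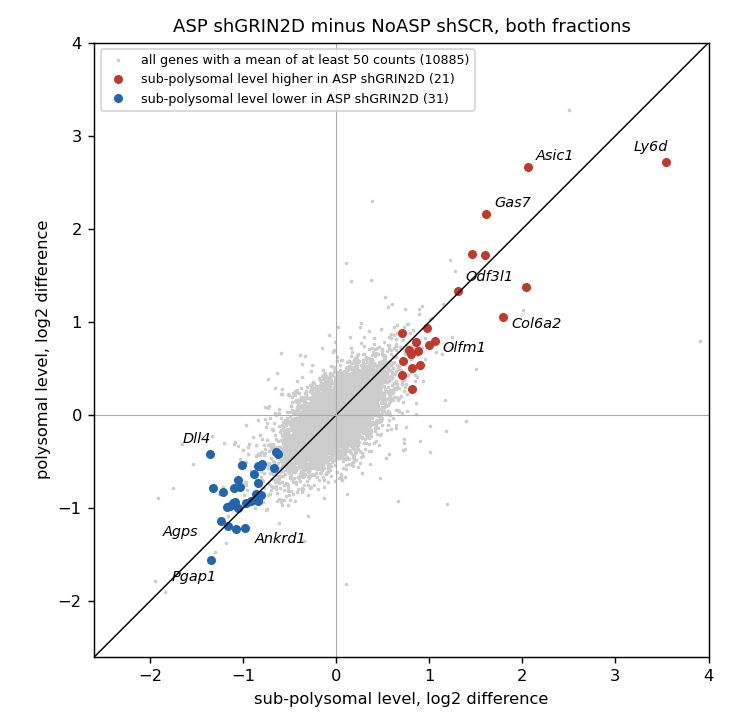
Log2 difference in mRNA level, ASP shGRIN2D minus NoASP shSCR, in the sub-polysomal (x axis) and polysomal (y axis) libraries, with the line of equal change. Grey points are genes with a mean of at least 50 counts (2 lie outside the axes), and the 52 coloured genes passed the sub-polysomal test, all with the same direction in both fractions.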

How the data were processed

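The members of the comparison and the gene lists were chosen with earlier results of these data known. Per the labels and the study's Methods, the authors trimmed the reads (Trim Galore 0.6.6, FastQC 0.11.9), aligned them to GRCm39 (STAR 2.6.1), quantified them with Salmon 1.4.0, rounded the counts and removed genes with little expression. All 17757 genes kept have counts in at least 3 of 4 replicates of at least 1 of the 8 combinations of condition and fraction, and 13467 of them in all 8. The deposited counts of 17757 genes are not normalized. The authors' deposited gene set collection, which gives the names and member genes of the sets, was used for its 50 HALLMARK sets. Their tables of fold changes, p-values and enrichment scores were not used.

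All 32 libraries were fitted in R 4.3.3 with edgeR 4.0.16 (TMM, quasi-likelihood F-test, two-sided, Benjamini-Hochberg over all genes, threshold 0.05). The ratio model had a term for each pellet and a polysomal to sub-polysomal ratio for each condition. Levels were fitted in the 16 libraries of a fraction. DESeq2 1.42.0 and limma 3.58.1 (voom) were alternatives, beside another scaling, a filter of at least 10 counts in every library, the 2 conditions alone, no pellet term, the replicate number as a block and each pellet left out. Steps were tested on simulated data. CPM use TMM-scaled totals. Same-numbered pellets of the 2 conditions had correlated deviations of 0.03, 0.38, −0.06 and 0.30, so the numbers were not taken to pair pellets. The pellets are separate samples by the Methods.

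Genes were named by a rule: up to 10 per direction by ratio (past the threshold, then by lowest unadjusted p, with at least 50 counts on average and no overlap), the genes of the study's mechanism, up to 2 per list by lowest p, and up to 5 per direction and fraction by level, with at least 50 counts on average in that fraction. Msmo1 was added after its value was seen. One gene named by the rule is not reported here. Positions and coding lengths are from GENCODE M21 (GRCm38), matched by gene ID, since no GRCm39 annotation was used here. The hairpin sequences were not analysed here.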

Additional observations from a re-analysis of the deposited data

Results flagged for a closer look

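In 150 groups of 4 pellets (ratios of the named genes and list medians, levels of the genes named by level, and the spread of the ratios), 6 had a pellet that stood apart from the other 3 by Dixon's gap test at its 95% critical value. Chance alone flags about 1 in 20 such groups, or 7.5 of 150. The pellet concerned was NoASP shSCR 2 for the sub-polysomal level of Pgap1 (20.6 CPM), NoASP shSCR 1 for the ratio of Spen (0.35), ASP shGRIN2D 2 for the ratio of Txndc16 (1.31), NoASP shSCR 3 for the median ratio of the CREB family list (−0.19), ASP shGRIN2D 1 for that of the polyamine list (−1.33) and ASP shGRIN2D 2 for that of the mitosis list (0.82). For Pgap1, Spen and Txndc16 the pellet that stood apart lay on the far side from the other condition.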

How the results depend on the processing

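The ratio test called 0 genes under the other scalings, the count filter, DESeq2, limma-voom, the fit without a pellet term, the replicate block and each pellet left out. Fitting the 2 conditions alone called 1, Gm20431. The polysomal count of 4 became 34 with DESeq2, 14 with the replicate block and 10 without ASP shSCR pellet 1, an alternative chosen after seeing the data because this pellet had the lowest spread of ratios (0.816). It ranged from 0 to 3 with 1 pellet left out. The sub-polysomal count of 52 became 169 with DESeq2 (which gave 4491 genes no adjusted p), 157 with the replicate block and 19 to 79 with 1 pellet left out. All 52 sub-polysomal and all 4 polysomal calls were among those of DESeq2 and of the replicate block. The cause of these changes was not tested. The difference in spread kept its direction and stayed short of the threshold throughout. With the replicate block p was 0.375 (exact sign-flip permutation over 4 pairs, smallest possible p 0.125). The size of the difference depended on single pellets. It was 0.052 with all pellets, 0.0027 without ASP shGRIN2D replicate 1 and 0.090 without ASP shGRIN2D replicate 2. Of 1561 values of single genes' ratios, 6 moved by more than the pellet spread, all of Grin1. Of 291 values of single genes' levels, 79 fell short of the threshold with 1 pellet left out and 7 under other settings (Col5a1, Cyp51 and Msmo1), all in the same direction. Depth limits what can be read of genes with few counts, such as Col1a1, Grin2d and Grin1.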

Other observations

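The 50 HALLMARK sets of the deposited collection had median differences in ratio between −0.14 and 0.10, with 0 genes past the threshold. Fatty acid metabolism (117 measured genes) stood highest at 0.10 and hedgehog signalling (20 genes) lowest at −0.14, followed by TGF-β signalling (50 genes) at −0.09. In level, the E2F targets, genes of DNA replication, had the lowest median difference outside polysomes, −0.20, with −0.21 in polysomes. The 25 genes of the mitosis list lay at −0.34 in both fractions, and Mki67, the proliferation antigen, at −0.49 and −0.82, of which neither passed (adjusted p = 0.436 and 0.960, edgeR).

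Gm20431, the 1 gene called when the 2 conditions were fitted alone, had 123, 131, 0 and 216 counts in the polysomal and 307, 426, 0 and 167 in the sub-polysomal libraries of ASP shGRIN2D. In NoASP shSCR it had 0 in all 4 polysomal and 0, 322, 148 and 160 in the sub-polysomal libraries. In the GRCm38 annotation it overlaps Ube2v1 and Tmem189 on the same strand, so the split of reads among the 3 is uncertain.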
